A study of Mus musculus with 12 samples.

Results

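Polycomb repressive complex 1 (PRC1) was followed through 9 of its subunit genes, which were taken by symbol from a given list. The genes were Bmi1, Pcgf2, Rnf2, Cbx2, Cbx7, Cbx8, Phc1, Phc2 and Phc3, and each was found among the 24421 gene symbols of the count tables. RNA sequencing of polyadenylated transcripts had been done on CD8+ T cells, the cytotoxic lymphocytes, from the spleens of C57BL/6 mice, an inbred strain. There were 6 libraries from cells given DMSO, the solvent control, and 6 from cells given an inhibitor of EZH2 (EZH2i). EZH2 is the methyltransferase subunit of Polycomb repressive complex 2 (PRC2) and acts on lysine 27 of histone H3. What the agent was, its dose and duration, the age of the mice and how cells were cultured is not stated in the labels. Nothing in the labels ties a library to a mouse or culture of its own, so p-values measure the spread between libraries, and that spread may be technical.

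PRC1 is the ubiquitin ligase arm of the Polycomb system. Its RING subunit, encoded by Rnf2, pairs with a Pcgf partner (Bmi1 or the product of Pcgf2 in the canonical complex) and attaches ubiquitin to histone H2A, while Cbx chromodomain proteins bind the histone H3 methylation laid down by PRC2 and Phc proteins join complexes to each other through their SAM domains. In blood cells Bmi1 is best known for holding down Cdkn2a, the locus of a pair of cell cycle inhibitors, and for sustaining self-renewal.

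Library totals ran from 17215483 to 28092434 counts in DMSO and from 19610258 to 31206228 in EZH2i. All 9 genes passed the filter on low counts, as did 11727 genes in all, of which 19.3% were called at an adjusted p under 0.05 in edgeR's quasi-likelihood test (13.3% higher in EZH2i and 6.05% lower). Levels are CPM, the counts relative to the scaled library size, and an adjusted p given with edgeR is from that test with Benjamini-Hochberg adjustment over all tested genes. The libraries numbered 6 stood apart from the other 5 of their group in both groups on the first 2 principal components, which held 45.2% and 33.8% of the variance, and results that rest on them are given with and without them. Where a replicate block was used, it paired libraries of the same number across groups. The labels do not state such a pairing. The label of the cells was met by Cd8a at 798 CPM or more in every library, while Cd4 reached at most 0.345 CPM. Of the 10 CD8 T cell markers, 4 were called lower in EZH2i (Cd8a, Lck, Cd2 and Cd3g) and 0 higher, and their summed level was 6254 to 7706 CPM in DMSO and 4811 to 6253 CPM in EZH2i. In a bulk library, fewer cells of a type and less RNA per cell cannot be told apart.

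The stretch before the transcription start is shown for 3 genes, Bmi1, Phc2 and Phc3, because they shared the 6-base E-box CACGTG and their RefSeq start matched the GENCODE start of the gene. The windows are the 250 bases before the start on the gene's own strand, from RefSeq for GRCm38.p6, and the capitals mark the E-box. The Bmi1 window lies at chr2:18676768-18677017 on the plus strand, that of Phc2 (the first of its 3 listed starts) at chr4:128654452-128654701 on the plus strand and that of Phc3 at chr3:30969416-30969665 on the minus strand. None of the 3 windows overlapped an annotated exon.
Bmi1: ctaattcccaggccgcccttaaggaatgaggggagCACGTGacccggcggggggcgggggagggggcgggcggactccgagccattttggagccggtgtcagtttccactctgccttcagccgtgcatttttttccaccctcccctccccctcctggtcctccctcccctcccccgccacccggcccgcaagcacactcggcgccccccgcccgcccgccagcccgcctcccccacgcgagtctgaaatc
Phc2: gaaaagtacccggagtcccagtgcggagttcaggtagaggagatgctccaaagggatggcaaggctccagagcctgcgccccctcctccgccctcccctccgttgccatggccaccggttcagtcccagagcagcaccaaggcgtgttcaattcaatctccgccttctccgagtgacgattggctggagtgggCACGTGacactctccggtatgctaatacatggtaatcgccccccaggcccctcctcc
Phc3: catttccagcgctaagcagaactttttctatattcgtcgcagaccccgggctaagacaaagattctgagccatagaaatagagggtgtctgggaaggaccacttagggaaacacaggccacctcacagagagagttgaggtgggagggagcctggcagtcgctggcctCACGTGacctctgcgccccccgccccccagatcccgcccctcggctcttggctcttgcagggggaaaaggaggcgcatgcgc
The E-box began 215 bases before the start in Bmi1, 57 bases before it in Phc2 and 82 bases before it in Phc3. The table held 10 windows for 8 of the 9 genes, and 5 of the 10 held CACGTG (those of Pcgf2 and Cbx8 besides the 3 shown), against 6.02% of the 32851 windows of the same length for all genes. The word reads the same on both strands, so each match was counted once. TTTCCCGC, TTTGGCGC and CCGGAAGT were in no window of these genes on either strand and in 0.895%, 0.417% and 2.88% of all windows. The Bmi1 window held 21 CpG dinucleotides, those of Phc2 and Phc3 held 13 and 12, and the median window held 6. CACGTG itself holds a CpG, and the windows of all genes were not matched for CpG content. Enrichment of the E-box was not tested. Of these 3 genes, Bmi1 was called higher in EZH2i, and Phc2 and Phc3 were not called.

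Bmi1, the Pcgf subunit that stimulates the ligase activity of the RING protein, was the 1 gene of the 9 that was called, and it rose. Its level was 45.6 CPM at the lowest, 49.5 at the median and 62.6 at the highest of the 6 DMSO libraries, and 118, 127 and 149 CPM in the 6 EZH2i libraries. Every treated library was far above every control, with no overlap. The means were 51.0 ± 6.02 and 129 ± 10.5 CPM (SD, n = 6 each), a 2.54-fold rise with a 95% interval of 2.24 to 2.88 (log2 fold change 1.34, SE 0.084, adjusted p = 8.38e-07 with edgeR). All 6 same-numbered pairs were higher in EZH2i, by 1.37 to 1.54 on the log2 scale for numbers 1 to 5 and by 0.91 for number 6. Number 6 had the highest DMSO value (62.6 CPM) and the lowest EZH2i value (118 CPM). Without both libraries of that number the log2 fold change was 1.44 (adjusted p = 2.59e-11 with edgeR). Bmi1 had the largest log2 fold change of the 2932 genes of the top expression quartile, where 3.44% of genes were called higher. The quartiles took in both groups, and Bmi1 was in the top one through its EZH2i level. Its DMSO mean lay below that of Cbx7, which averaged 69.1 CPM without the inhibitor and 69.9 CPM with it. Cbx7 was placed in the quartile below, where 5.83% of genes were called higher. The adjusted p of Bmi1 ranked 8 among all 11727, counted from the smallest. The gene spans chr2:18677018-18686629 on the plus strand (GENCODE M21, GRCm38), with no exonic overlap with another gene. The values rest on 6811 Bmi1 reads in DMSO and 20906 in EZH2i.

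Cdkn2a, the classic target of Bmi1, averaged 0.702 ± 0.417 CPM without the inhibitor and 14.0 ± 5.48 CPM with it (SD, n = 6 each). The control libraries were at 0.323 to 1.49 CPM and the treated ones at 9.46 to 24.6 CPM. The ranges did not overlap, and the log2 fold change was 4.36 (SE 0.345, adjusted p = 3.37e-06 with edgeR). Bmi1 and Cdkn2a transcripts were both higher in the EZH2i libraries, and number 6 had the highest Cdkn2a of each group. A count per symbol adds up the 2 main products of this locus.

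**Figure D1:**
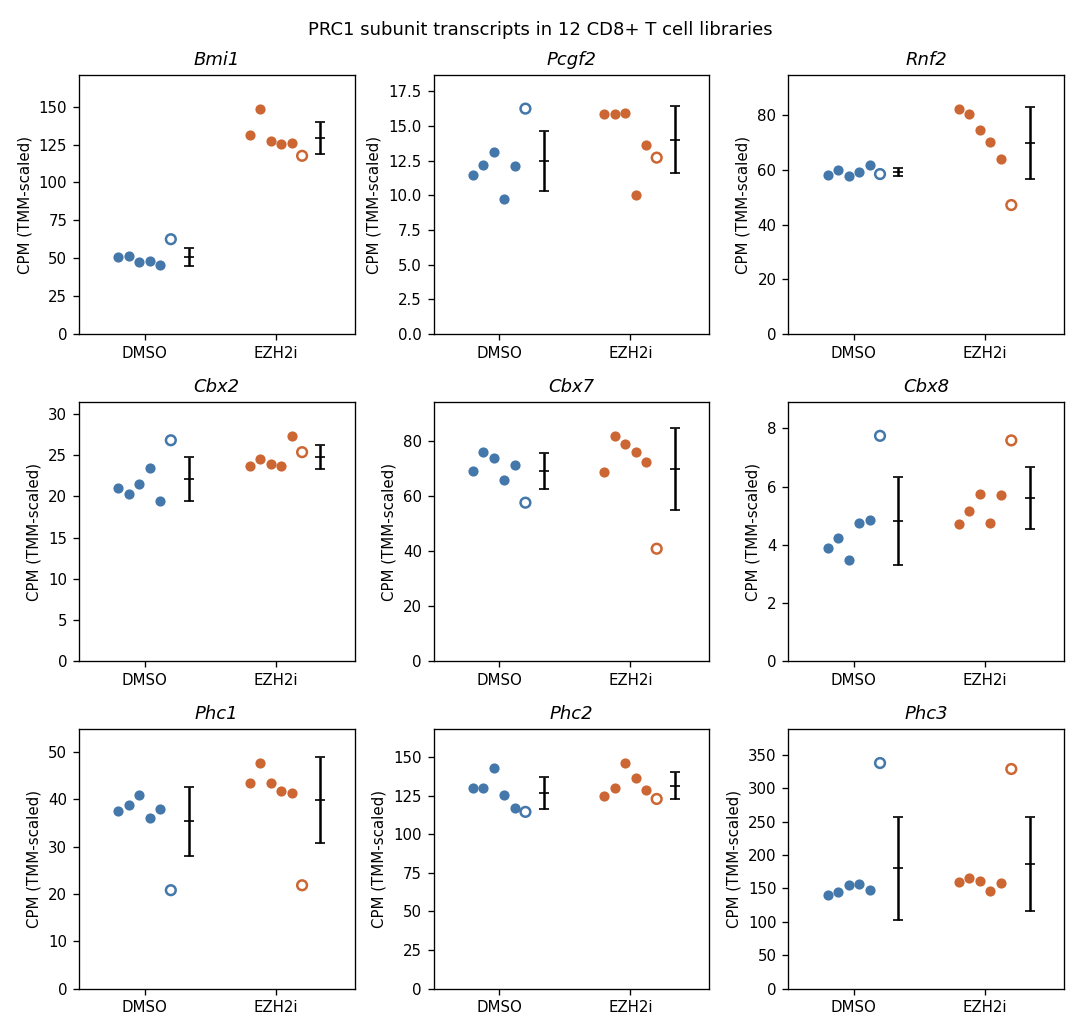
Each panel plots 1 PRC1 gene in CPM for the 6 DMSO (blue) and 6 EZH2i (orange) libraries, numbered 1 to 6 from left to right, with the mean and SD beside them and number 6 as an open circle. Bmi1 sits at 45.6 to 62.6 CPM in DMSO and 118 to 149 in EZH2i, the other 8 genes overlap between groups, and the open circles of Phc1 and Phc3 lie apart from the filled ones in both groups.

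Pcgf2, the paralogue that can take the place of Bmi1 in canonical PRC1, was low and was not called. It was at 9.76, 12.2 and 16.3 CPM (lowest, median and highest) in DMSO and 10.02, 14.8 and 16.0 CPM in EZH2i. The groups overlapped over nearly their whole range, and the log2 fold change was 0.17 with a 95% interval of -0.14 to 0.47 (adjusted p = 0.458 with edgeR). The highest DMSO value was number 6, and the other 5 were at 9.76 to 13.1 CPM. Without both libraries numbered 6 the log2 fold change of Pcgf2 was 0.29 (95% interval 0.04 to 0.54, adjusted p = 0.0575 with edgeR), and with the replicate block as well it was 0.27 and called (adjusted p = 0.0126). Per kilobase of merged exons, Bmi1 made up 78.4 ± 1.93% of the summed Bmi1 and Pcgf2 level in DMSO and 89.1 ± 1.44% in EZH2i (SD, n = 6 each). This share was 76.3 to 81.5% in the control libraries and 87.6 to 91.7% in the treated ones, with no overlap, and number 6 did not stand apart in it (77.4% and 89.1%). Its size depends on the length used. By the longest transcript the mean of Pcgf2 was 5.03 RPKM in DMSO and 5.64 in EZH2i, against 3.55 and 3.98 by merged exons. For Bmi1 these means were 14.2 and 36.0, against 12.8 and 32.6.

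Rnf2, the catalytic RING subunit, was even in DMSO, at 57.8, 58.9 and 61.7 CPM, and had a wide spread in EZH2i, at 47.2, 72.5 and 82.5 CPM. In EZH2i 5 libraries were above every DMSO library and number 6 was below every one. The means were 59.3 ± 1.43 and 69.9 ± 13.0 CPM (SD, n = 6 each), and Rnf2 was not called (log2 fold change 0.24, 95% interval -0.01 to 0.48, adjusted p = 0.164 with edgeR). It was called with the replicate number as a block (log2 fold change 0.22, adjusted p = 0.0413 with edgeR). It was also called without both libraries numbered 6 (log2 fold change 0.33, adjusted p = 0.000642) and without EZH2i number 6 alone (adjusted p = 0.00296). Rnf2 shares 158 exonic bases (3.83% of its merged exons) with Trmt1l on the other strand, and whether the counting used strand is not stated in the labels.

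The 3 chromodomain genes, Cbx2, Cbx7 and Cbx8, encode alternative readers of the PRC2 mark. Cbx2 (chr11:119022962-119031270, plus strand) and Cbx8 (chr11:119036305-119040969, minus strand) are close neighbours in GRCm38, and Cbx7 lies on chromosome 15. None was called by edgeR with all 12 libraries, and 0 of the 3 had an unadjusted p under 0.05, where 32.4% of all tested genes did. Cbx2 was at 19.4, 21.3 and 26.8 CPM in DMSO and 23.6, 24.2 and 27.3 CPM in EZH2i. All treated libraries lay above 5 of the 6 controls, and the control numbered 6 lay among the treated. Its log2 fold change was 0.17 (95% interval -0.02 to 0.35, adjusted p = 0.207 with edgeR), and 0.22 (adjusted p = 0.0181) without both libraries numbered 6.

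Cbx7 had the most reads of the 3, at 57.7, 70.3 and 76.2 CPM in DMSO and 41.0, 74.4 and 82.0 CPM in EZH2i. The lowest value of each group was number 6, and the other 5 libraries overlapped. The log2 fold change was 0.02 with a 95% interval of -0.29 to 0.32 (adjusted p = 0.949 with edgeR), and its sign turned in 6 of 21 alternative analyses. Without both libraries numbered 6 it was 0.09 (95% interval -0.03 to 0.22). Cbx7 shares 100 exonic bases (1.54%) with Apobec3 on the other strand. Cbx8 had the fewest reads of the 9 genes, 635 in DMSO and 921 in EZH2i, and was at 3.47, 4.48 and 7.74 CPM in DMSO and 4.70, 5.43 and 7.58 CPM in EZH2i. Number 6 was the highest in both groups and the groups overlapped. The log2 fold change of Cbx8 was 0.23 (95% interval -0.19 to 0.64, adjusted p = 0.465 with edgeR). It was 0.30 without both libraries numbered 6 (95% interval 0.04 to 0.56, adjusted p = 0.0592), 0.40 without DMSO number 6 alone and 0.12 without EZH2i number 6 alone, and was called in none of these.

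Of the polyhomeotic genes, Phc1 was at 20.8, 37.8 and 40.8 CPM in DMSO and 21.8, 42.5 and 47.7 CPM in EZH2i. The lowest value of each group was number 6, which lay at 0.543 and 0.502 times the mean of the other 5. Among the other libraries every EZH2i value (41.2 to 47.7 CPM) was above every DMSO value (36.0 to 40.8 CPM). With all 12 libraries and no block Phc1 was not called (log2 fold change 0.17, 95% interval -0.23 to 0.58, adjusted p = 0.584 with edgeR). It was higher in EZH2i in 6 of 6 pairs and was called with the replicate block (log2 fold change 0.17, 95% interval 0.05 to 0.29, adjusted p = 0.0231 with edgeR) and without both libraries numbered 6 (0.19, adjusted p = 0.0187).

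Phc3 went the other way in number 6. It was at 140, 151 and 338 CPM in DMSO and 147, 161 and 329 CPM in EZH2i, where the highest value of each group was number 6, at 2.27 and 2.08 times the mean of the other 5. The remaining libraries were even, at 140 to 157 and 147 to 166 CPM, and overlapped between groups. The log2 fold change of Phc3 was 0.05 (95% interval -0.50 to 0.61, adjusted p = 0.914 with edgeR), and the interval without both libraries numbered 6 was -0.01 to 0.20. Its sign turned in 4 of 21 alternative analyses. Phc2 was at 115, 128 and 143 CPM in DMSO and 123, 129 and 146 CPM in EZH2i. Its groups overlapped, number 6 was the lowest of each by a small margin, and the log2 fold change was 0.05 (95% interval -0.09 to 0.20, adjusted p = 0.635 with edgeR).

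**Figure D2:**
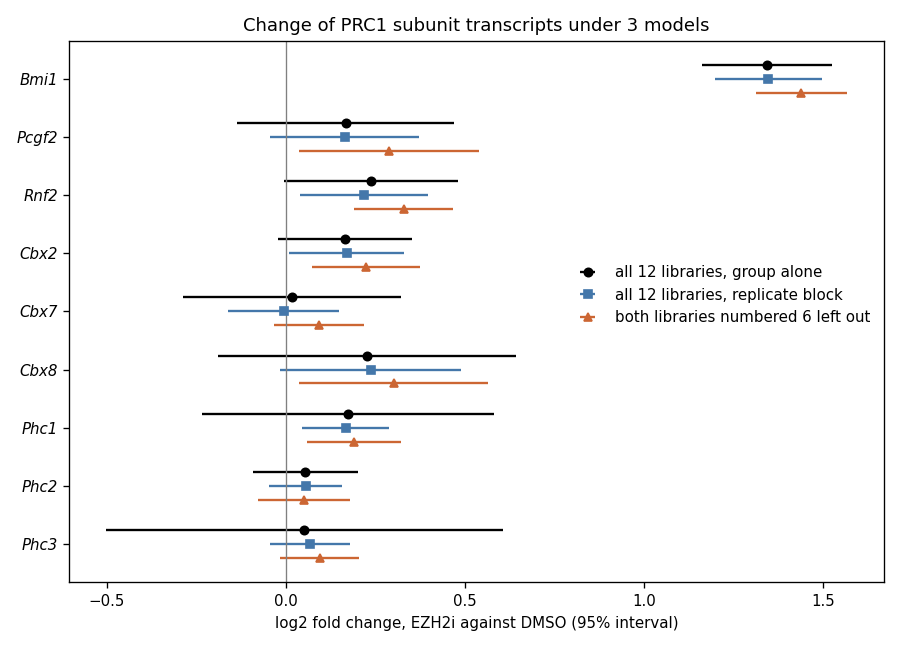
Points are log2 fold changes of EZH2i against DMSO for the 9 genes, with 95% intervals as bars, from all 12 libraries with the group alone (black circles), with the replicate block (blue squares) and without both libraries numbered 6 (orange triangles). Bmi1 is at 1.34 to 1.44 in all 3, the other 8 lie between -0.01 and 0.33, and the intervals of Phc1 and Phc3 are narrower when number 6 is blocked or left out.

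Counts over the 9 PRC1 genes were set beside those over all genes. With the group alone 1 of 9 was called higher and 0 lower, where 13.3% of all genes were called higher and 6.05% lower. The median log2 fold change of the 9 was 0.17, and that of all tested genes was -0.01. All 9 estimates were above 0, from 0.02 for Cbx7 to 1.34 for Bmi1, although those of Cbx7 and Phc3 turned in some alternatives. With the replicate block 3 of 9 were called, all higher (Bmi1, Phc1 and Rnf2), where 49% of all genes were called, 24.7% higher and 24.3% lower. Without both libraries numbered 6, 4 of 9 were called higher (Bmi1, Cbx2, Phc1 and Rnf2) and 0 lower, against 23.9% and 20.9% of all genes. The groups did not overlap, with EZH2i higher, for 1 of the 9 (Bmi1), which was the case for 7.5% of all genes, and with EZH2i lower for 0 of the 9, against 2.74%.

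**Figure D3:**
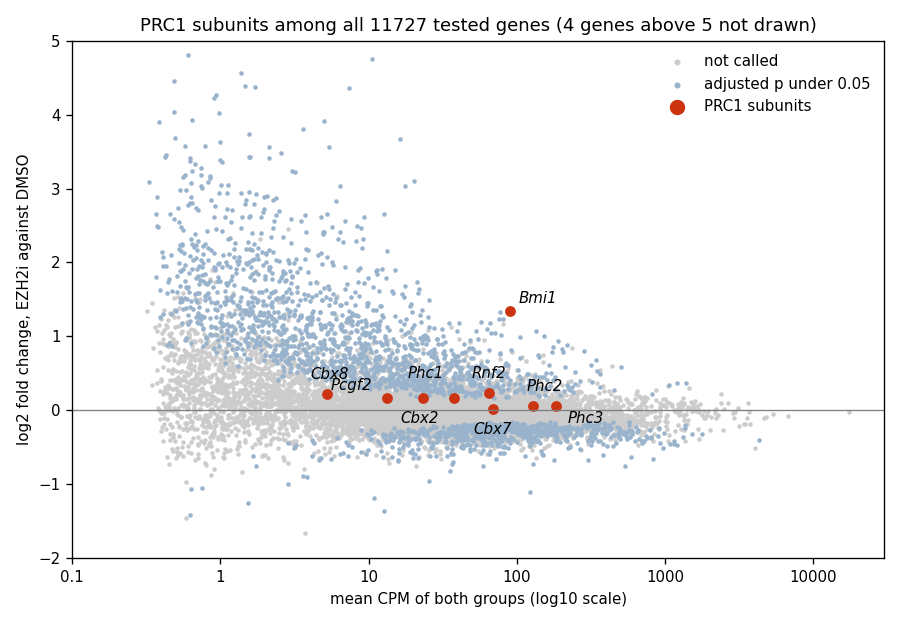
Each dot is 1 of the tested genes, with mean CPM on a log10 axis and the log2 fold change of EZH2i against DMSO on the other, pale blue where the adjusted p was under 0.05, and the 9 PRC1 genes in red. Bmi1 lies at 1.34, apart from the other 8, which lie inside the band of genes that were not called. The 4 genes above 5 are not drawn.

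Levels of different genes were compared per length, as RPKM, the CPM divided by the length of the merged exons in kilobases. In DMSO the order was Phc2 (17.9 ± 1.46), Rnf2 (14.4 ± 0.347), Bmi1 (12.8 ± 1.51), Cbx7 (10.6 ± 1.01), Phc3 (10.3 ± 4.44), Phc1 (6.67 ± 1.38), Cbx2 (5.19 ± 0.631), Pcgf2 (3.55 ± 0.611) and Cbx8 (1.31 ± 0.414) RPKM (SD, n = 6 each). Phc2 did not overlap Rnf2, Phc3 did not overlap Phc1 and Pcgf2 did not overlap Cbx8, whereas the other neighbours in this order overlapped. In EZH2i Bmi1 came first, at 32.6 ± 2.64 RPKM (29.6 to 37.4), clear of Phc2 at 18.6 ± 1.21 RPKM (17.4 to 20.7), and the other 8 kept their order. Below them, Cbx2 and Pcgf2 and then Pcgf2 and Cbx8 did not overlap in EZH2i, and the remaining neighbours did. With the length of the longest transcript in place of the merged exons, Bmi1 was still first in EZH2i, but at 36.0 RPKM it overlapped Phc2 at 33.3 RPKM, and in DMSO the mean of Phc3 (16.4 RPKM) was above that of Bmi1 (14.2 RPKM). Those ranges overlapped, with Phc3 above Bmi1 in 4 of 6 libraries, and the Phc3 mean includes number 6 at 30.8 RPKM.

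In the Cbx and Phc families the shares scaled by merged exon length overlapped between groups. Shares by the longest transcript were not computed, and their sizes would differ. The DMSO mean of Phc2, for example, was 17.9 RPKM by merged exons and 32.1 by the longest transcript. Cbx7 held 62.1 ± 5.70% of the summed Cbx2, Cbx7 and Cbx8 level in DMSO and 58.9 ± 7.52% in EZH2i (SD, n = 6 each), and Phc2 held 51.6 ± 5.32% and 50.7 ± 4.14% of the 3 Phc genes. In both groups number 6 had the highest Phc3 share, 49.0% and 46.6%, and the lowest Cbx7 share, 51.4% and 44.0%. Among the 3 families only the Bmi1 and Pcgf2 shares separated all DMSO from all EZH2i libraries. Those shares are complements of each other, and their separation restates the rise of Bmi1 beside the smaller change of Pcgf2.

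**Figure D4:**
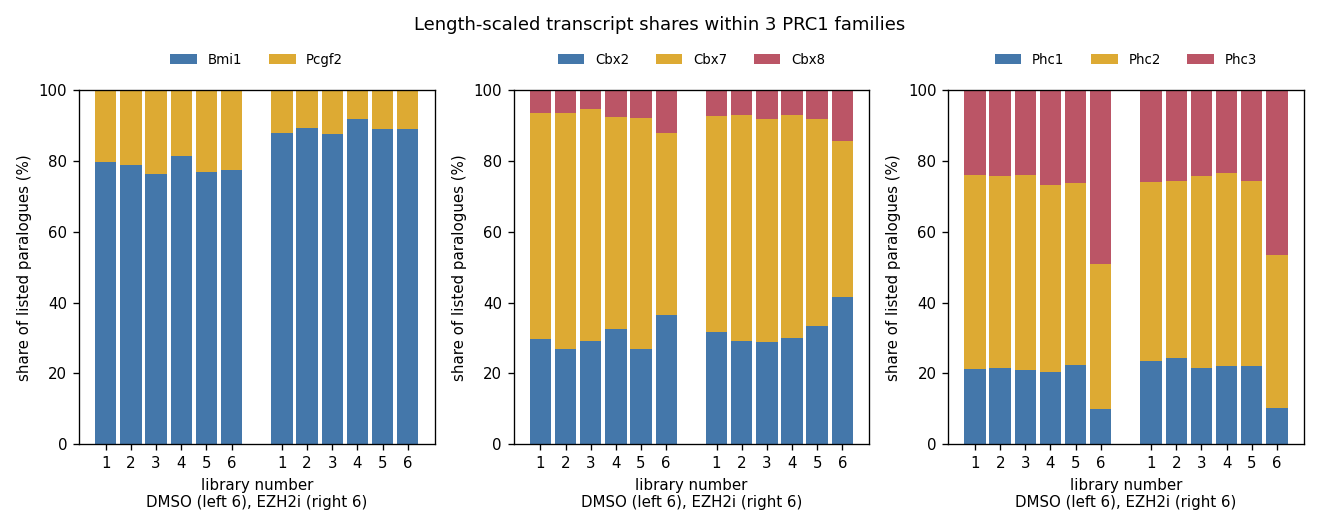
Stacked bars give the share (%) of each listed paralogue in its family for every library, scaled by merged exon length. The 6 DMSO libraries are on the left and the 6 EZH2i libraries on the right of each panel. Bmi1 takes 76.3 to 81.5% in DMSO and 87.6 to 91.7% in EZH2i, and library 6 stands apart in the Cbx and Phc panels of both groups.

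Of 6 further canonical PRC1 genes, 1 was called higher and 0 lower, against 13.3% and 6.05% of all genes. The list's median log2 fold change was 0.06. The gene was Scmh1, a SAM domain relative of the Phc proteins, which was at 12.5 ± 2.97 CPM in DMSO (8.40 to 17.4) and at 27.0 ± 3.79 CPM in EZH2i (20.7 to 30.8). Its groups did not overlap, with EZH2i higher, which was the case for 7.5% of all genes. Its log2 fold change was 1.11 (SE 0.154, adjusted p = 0.000244 with edgeR). Scmh1 and Bmi1 were thus the canonical genes of these lists called with the group alone.

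Of 22 genes of variant PRC1, the complexes that lack Cbx and Phc subunits, 1 was called higher and 1 lower. The shares over all genes were 13.3% and 6.05%, and the list's median log2 fold change was 0.05. Fbrsl1, a relative of Auts2, rose (18.1 ± 2.45 CPM in DMSO, 26.5 ± 4.09 CPM in EZH2i, SD, n = 6 each). Its log2 fold change was 0.55 (adjusted p = 0.00760 with edgeR). Skp1a, a subunit shared with other ubiquitin ligases, fell (179 ± 15.9 CPM in DMSO, 155 ± 4.44 CPM in EZH2i, SD, n = 6 each). Its log2 fold change was -0.21 (adjusted p = 0.0342 with edgeR), and the call ended with upper-quartile scaling (adjusted p = 0.146), without DMSO number 5 and without EZH2i number 2, 3, 4 or 5. At an unadjusted p under 0.05 there were 10 of the 22, against 32.4% of all tested genes. With the replicate block 7 of the 22 were called higher and 5 lower, against 24.7% and 24.3% of all genes. Of 9 genes for the removal of ubiquitin from histone H2A, Asxl3 had 0 counts in every library and the other 8 were tested. None of the 8 was called by edgeR (19.3% of all genes), and 0 had an unadjusted p under 0.05 (32.4% of all genes). With the replicate block 1 was called lower (24.3% of all genes). Usp22 had the smallest p of them, at 43.3 to 54.0 CPM in DMSO and 49.2 to 59.2 CPM in EZH2i (adjusted p = 0.220 with edgeR).

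Of 11 PRC2 genes, 1 was called higher and 0 lower, against 13.3% and 6.05% of all genes. The list's median log2 fold change was -0.05. Jarid2, an accessory subunit that helps PRC2 bind chromatin, was at 33.8 to 40.0 CPM in DMSO and 44.0 to 59.3 CPM in EZH2i. The groups did not overlap, with EZH2i higher, which was the case for 7.5% of all genes. The log2 fold change of Jarid2 was 0.43 (adjusted p = 0.00227 with edgeR). At an unadjusted p under 0.05 there were 8 of the 11, against 32.4% of all tested genes. With the replicate block 3 of the 11 were called higher and 5 lower, against 24.7% and 24.3% of all genes. The signed medians of these 4 lists were all closer to 0 than the 0.17 of the 9 PRC1 genes. Signed medians can be near 0 where genes move both ways. Without the sign, the medians were 0.24 for PRC2, 0.17 for variant PRC1 and 0.17 for the 9 PRC1 genes. They were 0.18 for all tested genes, 0.07 for further canonical PRC1 and 0.09 for H2A deubiquitination.

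**Figure D5:**
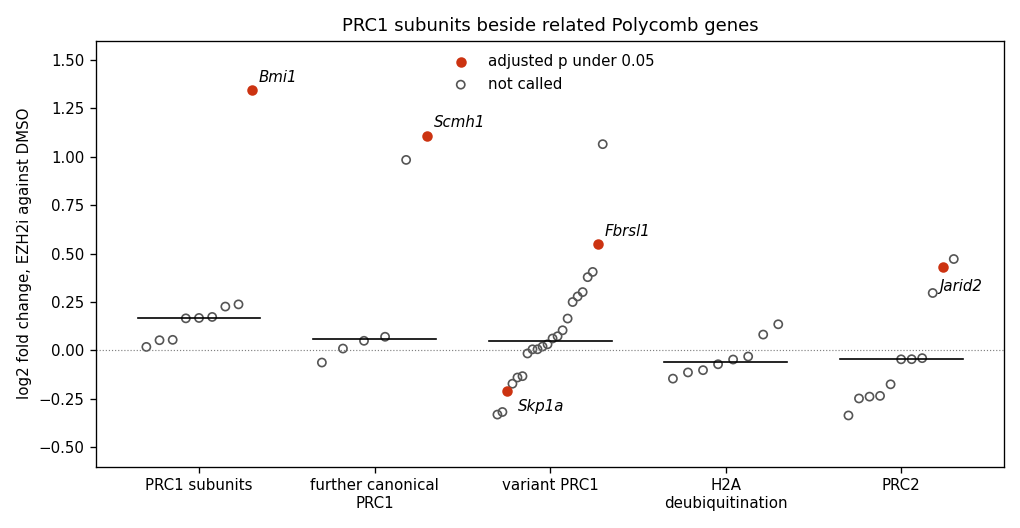
Each point is 1 gene's log2 fold change of EZH2i against DMSO, grouped by list and sorted within it, in red where the adjusted p was under 0.05, with the list's median as a line. Bmi1 (1.34) and Scmh1 (1.11) are the highest red points, the list medians lie between -0.06 and 0.17, and no gene of H2A deubiquitination is red.

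Over the 12 libraries, the gene whose log2 CPM tracked that of Bmi1 most closely among 9158 candidates was Fgl2 (Pearson r = 0.987), followed by Padi2 (r = 0.986). Their group means in DMSO and EZH2i were 127 and 220 CPM for Fgl2 and 125 and 228 CPM for Padi2. For Phc3 the closest were Myo5a (r = 0.993) and Atg2b (r = 0.983), with group means of 61.5 and 64.1 CPM for Myo5a, and for Phc1 they were Calcoco1 (r = 0.992) and Afmid (r = 0.990). The closest to Cbx7 were Gata3 and Rgs1 (both r = 0.967), and the closest to Cbx8 were Atp2c1 (r = 0.941) and Atg16l1 (r = 0.925). For Rnf2 they were Malt1 (r = 0.949) and Nlk (r = 0.935), and for Pcgf2 Eya3 (r = 0.909) and Safb2 (r = 0.894). For Cbx2 they were Zfp398 (r = 0.905) and Homer1 (r = 0.896), and for Phc2 Slc39a4 (r = 0.846) and Dctn1 (r = 0.838). The points share libraries, group and the departure of number 6, so these values describe patterns and carry no p.

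Markers of other cells were low, and some moved with the group. The summed NK cell markers were at 0.605 to 1.49 CPM in DMSO and 4.29 to 9.35 CPM in EZH2i, of which Klrb1c was 0.389 to 1.37 and 3.72 to 9.26 CPM, while Ncr1 was at or below 0.119 CPM. The 9 myeloid markers summed to 4.53 to 10.9 and 6.38 to 18.5 CPM, the 5 dendritic cell markers to 0.179 to 1.69 and 1.30 to 3.77 CPM, and the 4 CD4 T cell markers to 17.4 to 23.0 and 23.8 to 34.8 CPM. Without number 6 the myeloid sums were 9.15 to 10.9 and 15.4 to 18.5 CPM and the dendritic cell sums 0.647 to 1.69 and 1.97 to 3.77 CPM, with no overlap in either. Few of these markers passed the filter on low counts: 1 for NK cells, 2 myeloid, 1 for dendritic cells and 2 for CD4 T cells. In each of these 4 lists 1 of the tested genes was called higher and 0 lower, against 13.3% and 6.05% of all genes. Of the B cell markers, Cd79b was at 19.1 to 25.2 and 14.5 to 21.2 CPM, and Ms4a1 was at or below 0.194 CPM in every library. The 6 erythroid and megakaryocyte markers summed to 1.01 to 2.81 and 1.30 to 3.89 CPM, with 2 at 0 in all libraries. Of the 8 cycling cell genes 0 were called, against 19.3% of all genes. They summed to 3602 to 4709 and 3118 to 4288 CPM, and the lowest of each group was number 6. The part of cell makeup in the differences of Bmi1 and the other PRC1 genes was not tested.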

How the data were processed

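Per the labels' protocols, polyadenylated RNA of 12 libraries was made into stranded Illumina mRNA libraries and read from a single end. The files deposited by the authors hold raw counts per gene symbol, 1 table per library. Per the submitters' processing notes, reads went through featureCounts, TopHat2 2.1.1, Trimmomatic 0.38, SAMtools 1.9 and FastQC 0.11.7 (in no stated order), on build GRCm38. Not given in the sources used here: annotation, strand setting and handling of multiply matching reads. Therefore values of genes with paralogues or antisense partners are uncertain.

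The members and lists were chosen with earlier results of these data known. The fits used edgeR 4.0.16 (with limma 3.58.1, R 4.3.3): filterByExpr, TMM scaling and the two-sided quasi-likelihood test on the group alone, with calls at a Benjamini-Hochberg adjusted p under 0.05 over 11727 genes. The SE is the log2 fold change over the square root of F, and 95% intervals use the t quantile. CPM refers to the TMM-scaled library size. Lengths are from GENCODE M21. All listed genes of the complex are named; of each other list, up to 4 called genes by size, or the one with the smallest p. The closest genes were sought at 5 CPM or more, on log2 CPM with a prior count of 2. The test was checked on simulated counts drawn independently per library, without a shared replicate effect or a departing library. Alternatives were other scalings, filters, DESeq2 1.42.0, limma-voom, the replicate block and left-out libraries.

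The labels give both groups the numbers 1 to 6. Across genes, deviations from the group mean correlated between same-numbered libraries of different groups at r = 0.213 to 0.847. All were over 0.1, so the numbers were taken as pairs in the replicate block, while the main test used the group alone. The labels do not state this pairing, and 3 of 6 numbers correlated best with their own. Without number 6 the lowest r was 0.0371, so the pairing of the other numbers is not settled. Replicate libraries differed by more than sampling noise (lowest chi-square over its degrees of freedom 4.86), and none was counted as a duplicate.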

Additional observations from a re-analysis of the deposited data

Results flagged for a closer look

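The library numbered 6 lay outside the other 5 of its group, by a gap that was large against the range of the group (Dixon's test at the 95% level), in 8 of the 18 groups examined (9 genes in DMSO and EZH2i). Chance flags about 1 in 20 groups, and these groups share libraries. In DMSO, number 6 was high for Bmi1 (62.6 CPM, others 45.6 to 51.3), Cbx8 (7.74 CPM, others 3.47 to 4.84) and Phc3 (338 CPM, others 140 to 157), and low for Phc1 (20.8 CPM, others 36.0 to 40.8). In EZH2i it was high for Cbx8 (7.58 CPM, others 4.70 to 5.76) and Phc3 (329 CPM, others 147 to 166), and low for Phc1 (21.8 CPM, others 41.2 to 47.7) and Cbx7 (41.0 CPM, others 69.0 to 82.0). Phc1, Phc3 and Cbx8 thus departed in the same direction in both groups, while Bmi1 did so in DMSO and Cbx7 in EZH2i.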

How the results depend on the processing

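Bmi1 was called higher in 21 of 21 alternatives, with log2 fold changes of 1.30 to 1.44. Of the members' log2 fold changes under alternatives, 169 kept their direction and side of the threshold, 10 became called and 10 changed sign. The sign changes were those of Cbx7 (-0.0147 with limma-voom, -0.0059 with the replicate block, -0.0328 to 0.132 leaving out 1 library each) and Phc3 (-0.187 to 0.326 leaving out 1 library each). The number of members called higher, 1 with the group alone, was 3 with the replicate block, 4 without both libraries numbered 6, 5 with both changes (Pcgf2 added) and 1 to 2 leaving out 1 library each (Rnf2 added without EZH2i number 6). With all 12 libraries the block changed no other call among the members than those of Rnf2 and Phc1. Without both libraries numbered 6 it changed that of Pcgf2. Genes called higher (1557) were 2892 with the block, 2815 without both libraries numbered 6 and 3064 with both. Genes called lower (709) were 347 with upper-quartile scaling (1800 higher), 1125 with DESeq2, 2849 with the block, 2455 without both libraries numbered 6, 2843 with both and 435 to 1817 leaving out 1 library each, the last without EZH2i number 6. Other PRC1 and H2A deubiquitination genes called higher (2) were 4 with upper-quartile scaling, 9 with the block, 10 without number 6, 10 with both and 2 to 7 leaving out 1 library each (4 without DMSO number 6, 7 without EZH2i number 6). Those called lower (1) were 0 with upper-quartile scaling, 2 with DESeq2, 6 with the block, 4 without number 6, 7 with both and 0 to 3 leaving out 1 library each. The cause was not tested. With the longest transcript as length, 12 of 18 group means in RPKM moved by more than 1 SD. Of the members, Cbx8 had the fewest reads (635 in DMSO).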
